A study of Mus musculus with 8 samples.

Results

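Expression of 9 genes that encode secreted angiogenic ligands was followed in mouse embryonic fibroblasts (MEFs) with and without Keap1, grown as tumours and in culture dishes. The genes are Vegfa, Vegfb, Vegfc and Pgf of the VEGF family, the angiopoietins Angpt1 and Angpt2, the angiopoietin-like genes Angptl2 and Angptl4, and the adrenomedullin gene Adm. They were taken by symbol from a list of ligands, 9 of the 18217 gene symbols on the array, and all 9 passed the filter on dim probes. The 4 groups were allografts of Keap1-/- TR MEFs (written Keap1 null here), allografts of WT TR MEFs, Keap1 null cells in dishes and WT cells in dishes, with 2 arrays per group. TR stands in the name of both lines and is not spelled out in the labels, so all 4 groups share whatever it denotes. Tumours were grown in nude (nu/nu) mice, whose age is not given, from 3000000 injected Keap1 null cells or 10000000 injected WT cells, and were taken at 100 to 150 mm3. Each genotype is represented by 1 named line, so genotype and line cannot be told apart, and in allografts the genotype also goes with the number of cells injected. Whether replicates 1 and 2 came from separate cultures or animals is not stated, so the p-values measure the spread between these arrays, which may be technical.

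KEAP1 is the adaptor that marks the transcription factor NRF2 for degradation. VEGFA, secreted by hypoxic cells after stabilisation of the HIF transcription factors, drives endothelial growth through the receptors KDR and FLT1, while VEGFB and PGF bind FLT1 and VEGFC acts mainly through FLT4 on lymphatic vessels. ANGPT1 activates the endothelial receptor TEK and steadies vessels, ANGPT2 competes with it, ANGPTL4 inhibits lipoprotein lipase, and adrenomedullin dilates and seals vessels through CALCRL and its RAMP partners.

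The stretch of 250 bases before the start site is shown for Vegfa, Pgf, Vegfc and Adm, the genes on which the comparison of genotypes turns. The sequences are from RefSeq on build GRCm38.p6, written 5′ to 3′ on the gene's strand, and capitals mark a HIF core (ACGTG or GCGTG) or an antioxidant response core (TGACNNNGC, the core that NRF2 binds), each searched on both strands.
Vegfa, chr17:46032378-46032627, minus strand: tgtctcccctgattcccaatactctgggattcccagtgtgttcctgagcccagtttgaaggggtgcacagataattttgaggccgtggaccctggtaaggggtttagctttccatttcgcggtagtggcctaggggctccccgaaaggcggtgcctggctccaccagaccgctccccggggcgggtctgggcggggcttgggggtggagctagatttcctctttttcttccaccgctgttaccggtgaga
Pgf, chr12:85177314-85177563, minus strand: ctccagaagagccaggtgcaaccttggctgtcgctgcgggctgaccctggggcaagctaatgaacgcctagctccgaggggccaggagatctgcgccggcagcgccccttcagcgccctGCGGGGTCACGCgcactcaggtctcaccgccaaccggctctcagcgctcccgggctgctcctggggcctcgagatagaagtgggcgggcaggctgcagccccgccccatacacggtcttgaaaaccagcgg
Vegfc, chr8:54077282-54077531, plus strand: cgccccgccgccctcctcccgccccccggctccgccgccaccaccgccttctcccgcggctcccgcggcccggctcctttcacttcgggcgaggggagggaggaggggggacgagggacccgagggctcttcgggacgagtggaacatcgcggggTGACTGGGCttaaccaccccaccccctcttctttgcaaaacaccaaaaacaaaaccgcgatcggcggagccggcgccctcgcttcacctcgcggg
Adm, chr7:110627407-110627656, plus strand: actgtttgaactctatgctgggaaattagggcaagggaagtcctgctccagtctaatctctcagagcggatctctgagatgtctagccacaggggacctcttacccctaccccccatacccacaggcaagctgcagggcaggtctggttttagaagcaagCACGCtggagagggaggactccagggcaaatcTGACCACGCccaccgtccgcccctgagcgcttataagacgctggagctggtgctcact
The Vegfa stretch held neither motif, which says only that these letters are not in this window. The Vegfc stretch held 1 antioxidant response core. The Pgf stretch held 1 match to each motif, which overlapped, and the Adm stretch held 2 HIF cores, of which 1 overlapped its antioxidant response core. Over all 32851 promoter windows of the same length, 38.6% held a HIF core and 10.2% an antioxidant response core, so a HIF core is common by letters alone. The table held windows for 6 of the 9 ligands, 8 windows in all, and Angpt1, Angpt2 and Angptl4 were not among them. A second window of Vegfa, chr17:46025164-46025413, held 2 HIF cores. It lies on the minus strand downstream of the Vegfa window shown, and whether transcripts of these cells start there was not tested. The Vegfb window held 2 HIF cores, the Angptl2 window held 1 antioxidant response core, and a second Pgf window held neither motif.

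Levels are given as the log2 of the processed intensity minus the 75th percentile of the array, so that 0 is the 75th percentile and 1 unit is a doubling, and no level is set against that of another gene. On the 8 arrays the 75th percentile lay between 1084 and 1546 intensity units, and 60.9% to 65% of spots in dishes and 70.2% to 75.1% in allografts were well above background. Keap1 itself lay at 1.00 and 0.92 in Keap1 null allografts, against 2.85 and 2.46 in WT allografts, and at 2.37 and 2.22 in Keap1 null dishes, against 3.32 and 2.99 in WT dishes. It was lower in the null line in both settings but not absent, and where its probe lies relative to the deletion is not recorded. Fibroblast markers were well above background in every group, on both arrays for 12 of 12 in either allograft, 11 in Keap1 null dishes and 10 in WT dishes. Their levels moved with line and setting. In dishes 8 of the 12 were higher and 1 lower in Keap1 null cells (median 1.93), and in allografts 3 were higher and 5 lower (median -0.47). The interaction was negative for 8 and positive for 1 (median -1.48). By the limma test described below, 21.1% of all targets differed in dishes, 41.8% in allografts and 32.9% in the interaction. The part of the fibroblast marker shift in the differences of the ligands was not tested. The replicate 1 arrays of all groups were on a shared slide and the replicate 2 arrays on another.

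A difference is called where limma's adjusted p, Benjamini-Hochberg adjusted over all 22919 targets of the array, was under 0.05. In allografts, Vegfa, Vegfb, Pgf and Angpt2 were higher and Vegfc was lower in the Keap1 null line, by between 1.95-fold and 3.97-fold. In dishes the picture was different: Pgf and Angpt2 were lower, Vegfc and Adm were higher, Angptl4 was lower, and Vegfa and Vegfb did not pass the test. The genotype difference of Vegfa, Vegfb, Vegfc, Pgf, Angpt2, Angptl4, Adm and Angpt1 differed between allograft and dish by a test of that difference, although the Angpt1 value rests on dish intensities that were not above background.

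**Figure D1:**
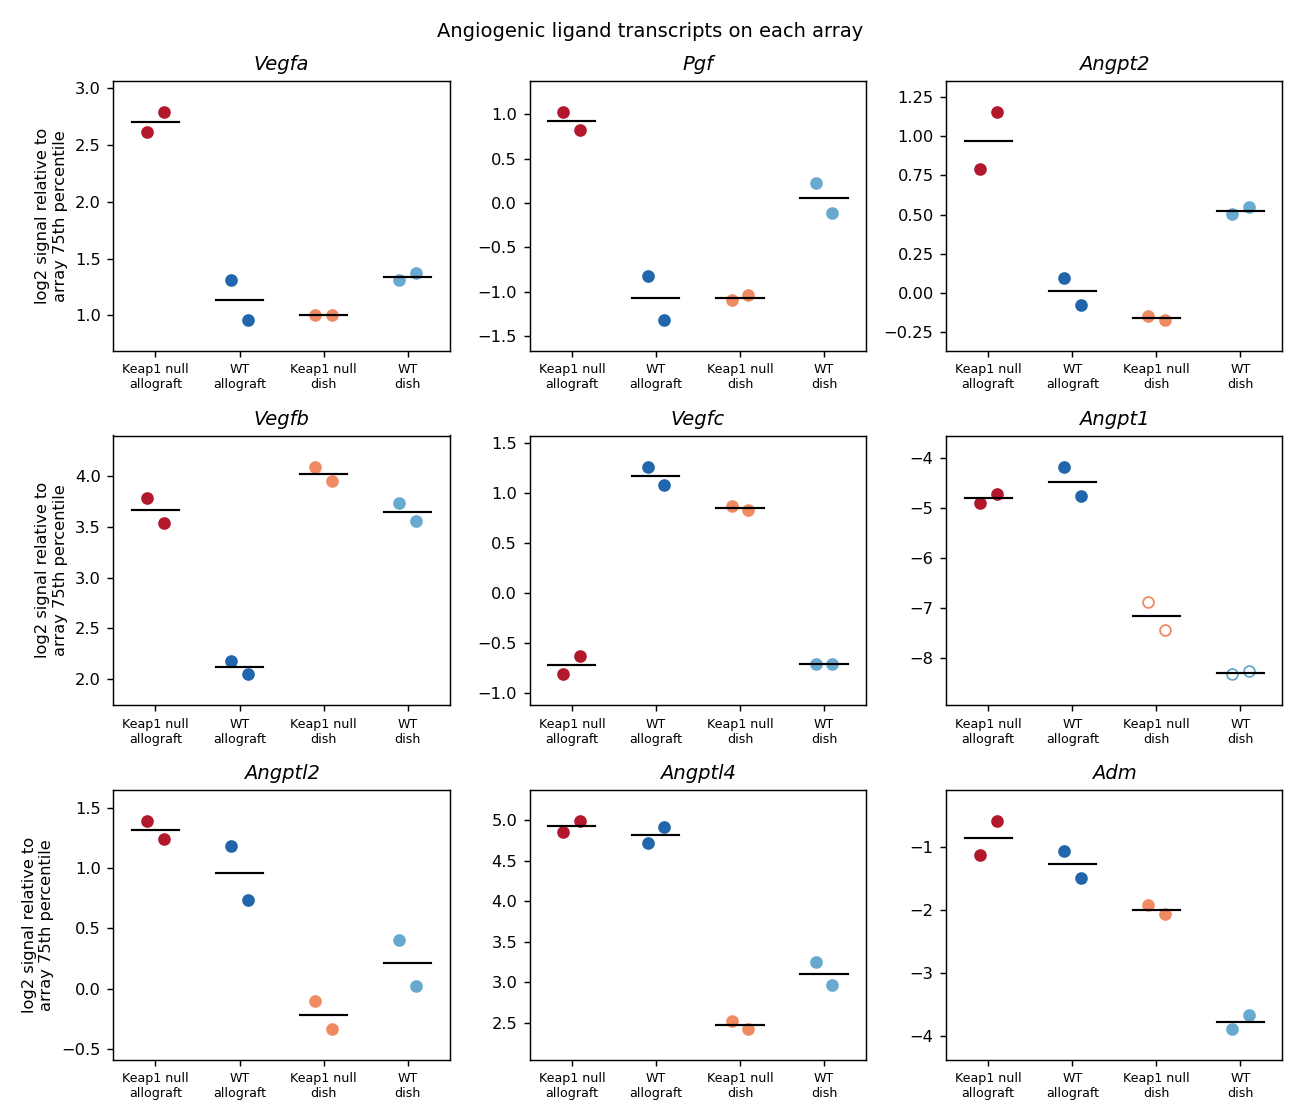
Level of each of the 9 ligands on every array, as log2 intensity relative to the array's 75th percentile, with Keap1 null allografts, WT allografts, Keap1 null dishes and WT dishes from left to right; each point is an array and an open point is an array on which the probe was not well above background. Vegfa lies at 2.61 and 2.78 in Keap1 null allografts and at no more than 1.37 in the other groups, and Vegfc is high in WT allografts and Keap1 null dishes.

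Of the VEGF family ligands, Vegfa, the main hypoxia-induced endothelial growth factor, stood at 2.61 and 2.78 in Keap1 null allografts, against 1.31 and 0.96 in WT allografts. In dishes it stood at 1.00 and 1.00 in Keap1 null cells, against 1.31 and 1.37 in WT cells. The Keap1 null allografts were above every other array, while the other 3 groups lay close together. The genotype difference in allografts was 1.56 ± 0.14 (SE) on the log2 scale, 2.94-fold higher in Keap1 null (limma adjusted p = 0.000416). In dishes it was -0.34 ± 0.14, and the arrays did not overlap but the test was not passed (limma adjusted p = 0.153). The difference between them, the interaction, was 1.90 ± 0.20 (limma adjusted p = 0.00117).

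Within each line, the allograft minus dish difference of Vegfa was 1.70 ± 0.14 in Keap1 null cells, a 3.24-fold rise (limma adjusted p = 0.000145), and -0.20 ± 0.14 in WT cells (limma adjusted p = 0.246), where the arrays overlapped. The array holds 4 Vegfa probes and the values above are those of the brightest. In allografts all 4 were higher in the null line, by 1.56 to 1.77, and all 4 gave an interaction between 1.90 and 2.44. In dishes and in WT growth the probes did not all fall on the same side of the threshold. The probe printed in 10 spots was lower in Keap1 null dishes, by -0.65 (limma adjusted p over all probes = 0.0158). It was also lower in WT allografts than WT dishes, by -0.88 (limma adjusted p over all probes = 0.00119). The other 2 probes were called lower in WT growth at -0.47 and -1.09 but not in the dish comparison.

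**Figure D2:**
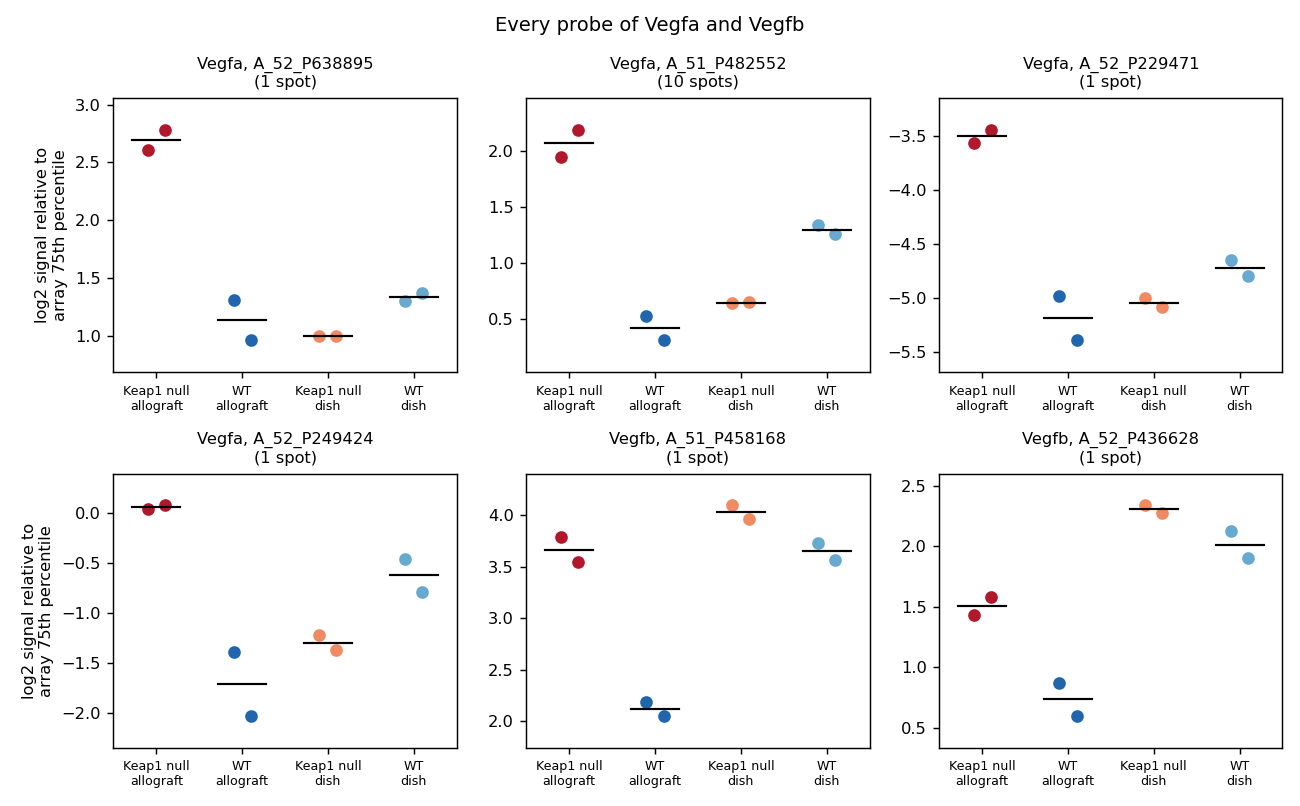
Log2 level of each probe of Vegfa (4 probes) and Vegfb (2 probes) on every array, by group, on the scale used for the levels in the text. Each point is an array and the line is the group mean. The differences computed from these levels, Keap1 null minus WT in allografts, were between 1.56 and 1.77 for the 4 Vegfa probes. For the 2 Vegfb probes they were 1.55 and 0.77.

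Pgf, which encodes a FLT1 ligand, differed between the lines in opposite directions in tumours and dishes. It lay at 1.02 and 0.82 in Keap1 null allografts, against -0.82 and -1.31 in WT allografts. In dishes it lay at -1.09 and -1.04 in Keap1 null cells, against 0.23 and -0.11 in WT cells. The null line was therefore the higher of the lines as a tumour and the lower in dishes, with no overlap in either setting. The allograft difference was 1.99 ± 0.20, or 3.97-fold higher (limma adjusted p = 0.00068), and the dish difference was -1.12 ± 0.20, or 2.17-fold lower (limma adjusted p = 0.0131). In the deposited table without scaling 1 of the 9 ligands was called lower in dishes (11.4% of all targets called). The dish calls of Pgf and Angptl4 were therefore not both kept there. The interaction was 3.11 ± 0.28 (limma adjusted p = 0.000753). Pgf in allografts over dishes rose 3.96-fold in Keap1 null cells (limma adjusted p = 0.000333) and fell 2.18-fold in WT cells (limma adjusted p = 0.0033). The dish call was lost when Keap1 null dish 1 (adjusted p = 0.0745), Keap1 null dish 2 (adjusted p = 0.0673) or WT dish 1 (adjusted p = 0.0679) was left out of the limma fit, with differences of -1.10, -1.15 and -0.95.

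Vegfb, which also encodes a FLT1 ligand, was high in dishes of both lines and lower in WT tumours. It lay at 3.79 and 3.54 in Keap1 null allografts, against 2.18 and 2.05 in WT allografts. In dishes it lay at 4.10 and 3.96 in Keap1 null cells, against 3.73 and 3.56 in WT cells. The WT allografts were the lowest, and every array of the other 3 groups lay at 3.54 or above. The genotype difference in allografts was 1.55 ± 0.13, or 2.93-fold higher in Keap1 null (limma adjusted p = 0.000323), and in dishes it was 0.38 ± 0.13 (limma adjusted p = 0.0984). In WT cells Vegfb was 2.89-fold lower in allografts than in dishes (limma adjusted p = 0.000151), and in Keap1 null cells the difference was -0.36 ± 0.13 (limma adjusted p = 0.0509). The interaction was 1.17 ± 0.18 (limma adjusted p = 0.00544). The second Vegfb probe had the same direction in every comparison, with an allograft difference of 0.77 (limma adjusted p over all probes = 0.0059). In Keap1 null growth it was called lower, at -0.80 (limma adjusted p over all probes = 0.0029). It gave an interaction of 0.48 that did not pass the test (limma adjusted p over all probes = 0.111). With the replicate number as a block in the limma fit the dish difference of Vegfb was called (adjusted p = 0.0194), and so was its growth difference in Keap1 null cells (adjusted p = 0.00777). The interaction was lost in the deposited table without scaling (0.82, adjusted p = 0.11).

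Vegfc, the lymphatic growth factor of the family, had the opposite signs to Pgf. It lay at -0.81 and -0.63 in Keap1 null allografts, against 1.26 and 1.08 in WT allografts. In dishes it lay at 0.87 and 0.83 in Keap1 null cells, against -0.71 and -0.71 in WT cells. High levels were thus found in WT tumours and in Keap1 null dishes, and low levels in the other 2 groups. In allografts the null line was 3.71-fold lower, a log2 difference of -1.89 ± 0.11 (limma adjusted p = 8.64e-05), and in dishes it was 2.94-fold higher, 1.56 ± 0.11 (limma adjusted p = 0.000384). The interaction of -3.45 ± 0.15 (limma adjusted p = 0.000103) was the largest of the 9 ligands in absolute size. Vegfc in allografts over dishes rose 3.69-fold in WT cells (limma adjusted p = 3.47e-05) and fell 2.96-fold in Keap1 null cells (limma adjusted p = 7.54e-05). Among the other members of the family, Vegfd, which shares the FLT4 receptor with Vegfc, was higher in the null line in both settings, by 1.26 in allografts and 1.24 in dishes, and its interaction was 0.02.

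**Figure D3:**
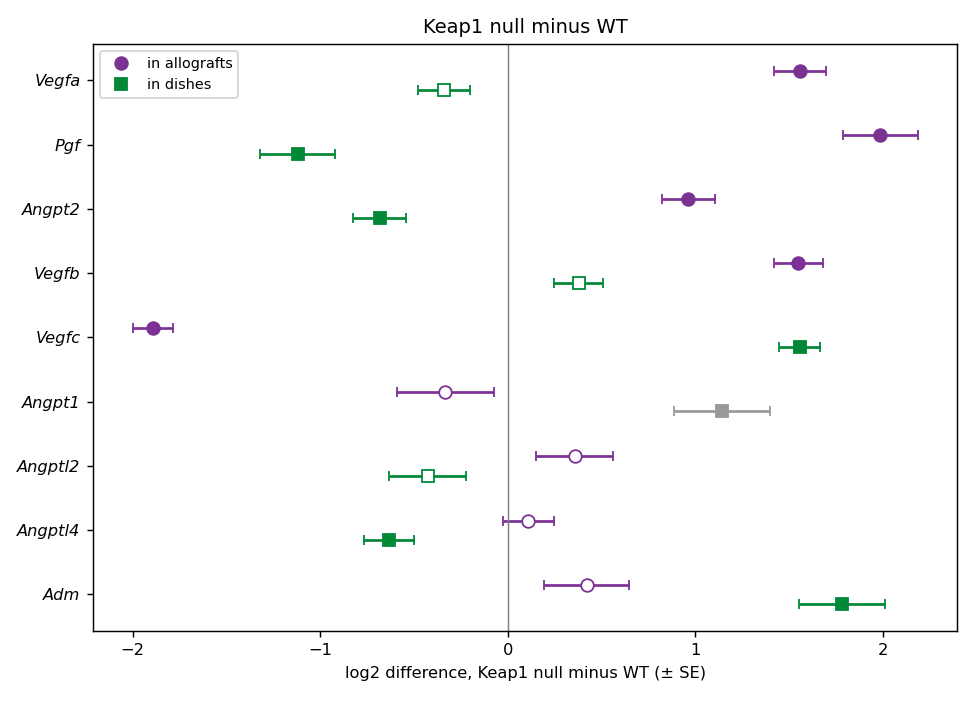
Log2 difference of each ligand, Keap1 null minus WT, in allografts (purple circles) and in dishes (green squares), with bars of ± SE; filled symbols passed limma's adjusted p under 0.05, open symbols did not, and grey marks Angpt1 in dishes, where no array was above background. Vegfc, Pgf and Angpt2 have opposite signs in the 2 settings, and Vegfa and Vegfb stand out to the right in allografts.

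Of the TEK ligands, Angpt2 lay at 0.79 and 1.15 in Keap1 null allografts, against 0.10 and -0.08 in WT allografts. In dishes it lay at -0.14 and -0.17 in Keap1 null cells, against 0.50 and 0.55 in WT cells. The lines did not overlap in either setting, and the null line was the higher as a tumour and the lower in dishes. The allograft difference was 0.96 ± 0.14, or 1.95-fold higher (limma adjusted p = 0.00299). The dish difference was -0.68 ± 0.14, or 1.60-fold lower (limma adjusted p = 0.0213), and the interaction was 1.64 ± 0.20 (limma adjusted p = 0.00207). From dish to allograft Angpt2 rose 2.19-fold in Keap1 null cells (limma adjusted p = 0.000792) and fell 1.43-fold in WT cells (limma adjusted p = 0.0187). The dish call was lost when any of the 4 dish arrays was left out of the limma fit (Keap1 null dish 1, adjusted p = 0.102; Keap1 null dish 2, 0.11; WT dish 1, 0.0826; WT dish 2, 0.0895) and in the deposited table without scaling (adjusted p = 0.109). The WT growth call was lost without WT allograft 2 (adjusted p = 0.0933), WT dish 1 (adjusted p = 0.0595) or WT dish 2 (adjusted p = 0.0743).

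Angpt1 lay at -4.89 and -4.71 in Keap1 null allografts, against -4.17 and -4.77 in WT allografts. On the 4 dish arrays its probe was not well above background. The groups of tumours overlapped and their difference was -0.33 ± 0.26 (limma adjusted p = 0.357). From dish to allograft Angpt1 was at least 3.76-fold higher in Keap1 null cells and at least 4.42-fold higher in WT cells. Its dim dish signals were -6.89 and -7.44 in Keap1 null cells and -8.33 and -8.28 in WT cells. The limma tests of growth (adjusted p = 0.000443 in Keap1 null cells and 6.02e-05 in WT cells) used those dim signals and do not test the bounds. The interaction, -1.47 ± 0.36 (limma adjusted p = 0.0265), rests on those dim dish values and reversed to 0.0195 under normexp background correction (adjusted p = 0.958). In dishes both groups were below background, so no fold is given. A second Angpt1 probe, also dim in dishes, passed the test neither for the interaction (-0.93, limma adjusted p over all probes = 0.081) nor in dishes (0.56, limma adjusted p over all probes = 0.158).

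Of the angiopoietin-like genes, Angptl4, a secreted lipase inhibitor that responds to hypoxia and to PPAR transcription factors, was higher in allografts than in dishes of both lines. It lay at 4.85 and 4.99 in Keap1 null allografts, against 4.71 and 4.91 in WT allografts. In dishes it lay at 2.52 and 2.43 in Keap1 null cells, against 3.25 and 2.97 in WT cells. The tumours of the 2 lines overlapped, with a difference of 0.11 ± 0.13 (limma adjusted p = 0.566), while in dishes the null line was 1.55-fold lower (-0.63 ± 0.13, limma adjusted p = 0.0233). From dish to allograft Angptl4 rose 5.44-fold in Keap1 null cells (limma adjusted p = 3.28e-05) and 3.25-fold in WT cells (limma adjusted p = 0.000115), and the interaction was 0.74 ± 0.19 (limma adjusted p = 0.0303). The dish call was lost without Keap1 null dish 1 (adjusted p = 0.094), Keap1 null dish 2 (adjusted p = 0.128) or WT dish 1 (adjusted p = 0.0982). In the deposited table without scaling 1 of the 9 ligands was called lower in dishes (11.4% of all targets called). The dish calls of Angptl4 and Pgf were therefore not both kept there. The interaction of Angptl4 was lost with quantile normalization (0.37, adjusted p = 0.188) and in the table without scaling (0.39, adjusted p = 0.365). It was also lost without Keap1 null allograft 1 (adjusted p = 0.0556), Keap1 null allograft 2 (0.0805), Keap1 null dish 1 (0.0749), Keap1 null dish 2 (0.101), WT allograft 1 (0.0881) or WT dish 1 (0.0721). Adipocyte markers summed to 16.0 to 19.1 in Keap1 null allografts and 6.36 to 18.7 in WT allografts, against 1.95 to 1.97 in Keap1 null dishes and 1.72 to 1.74 in WT dishes, on a linear scale relative to the 75th percentile. Adipoq, Plin1, Cfd and Retn were not above background in dishes, and the part of such cells in the rise was not tested.

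Angptl2 lay at 1.39 and 1.24 in Keap1 null allografts, against 1.18 and 0.73 in WT allografts. Its dish levels were -0.10 and -0.33 in Keap1 null cells, against 0.40 and 0.02 in WT cells. The genotype differences were 0.36 ± 0.21 in allografts (limma adjusted p = 0.219) and -0.43 ± 0.21 in dishes (limma adjusted p = 0.217), and the interaction was 0.79 ± 0.29 (limma adjusted p = 0.0909). None passed the test, and all were called when the replicate number was a block (adjusted p = 0.0366, 0.0356 and 0.0122). In allografts over dishes it rose 2.89-fold in Keap1 null cells (limma adjusted p = 0.00108) and 1.67-fold in WT cells (limma adjusted p = 0.0192). The WT call was lost without WT allograft 1 (adjusted p = 0.0906) or WT dish 2 (adjusted p = 0.0943). The second Angptl2 probe gave 1.03 in WT growth and 1.54 in Keap1 null growth.

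Adm lay at -1.12 and -0.59 in Keap1 null allografts, against -1.06 and -1.49 in WT allografts. Its dish levels were -1.93 and -2.07 in Keap1 null cells, against -3.89 and -3.67 in WT cells. The WT dishes were the lowest of all arrays, and the tumours of the 2 lines overlapped. In dishes the null line was 3.44-fold higher (1.78 ± 0.23, limma adjusted p = 0.00384), and in allografts the difference was 0.42 ± 0.23 (limma adjusted p = 0.199), with -0.07 on slide 1 and 0.91 on slide 2. Adm in allografts over dishes rose 5.67-fold in WT cells (limma adjusted p = 0.000203) and 2.21-fold in Keap1 null cells (limma adjusted p = 0.00575). The interaction was -1.36 ± 0.32 (limma adjusted p = 0.0237), with -2.02 on slide 1 and -0.70 on slide 2. It was lost in 5 of the 8 fits that left out an array, without Keap1 null allograft 1 (adjusted p = 0.0511), Keap1 null dish 1 (0.0764), Keap1 null dish 2 (0.0588), WT allograft 1 (0.0648) or WT dish 1 (0.0718).

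**Figure D4:**
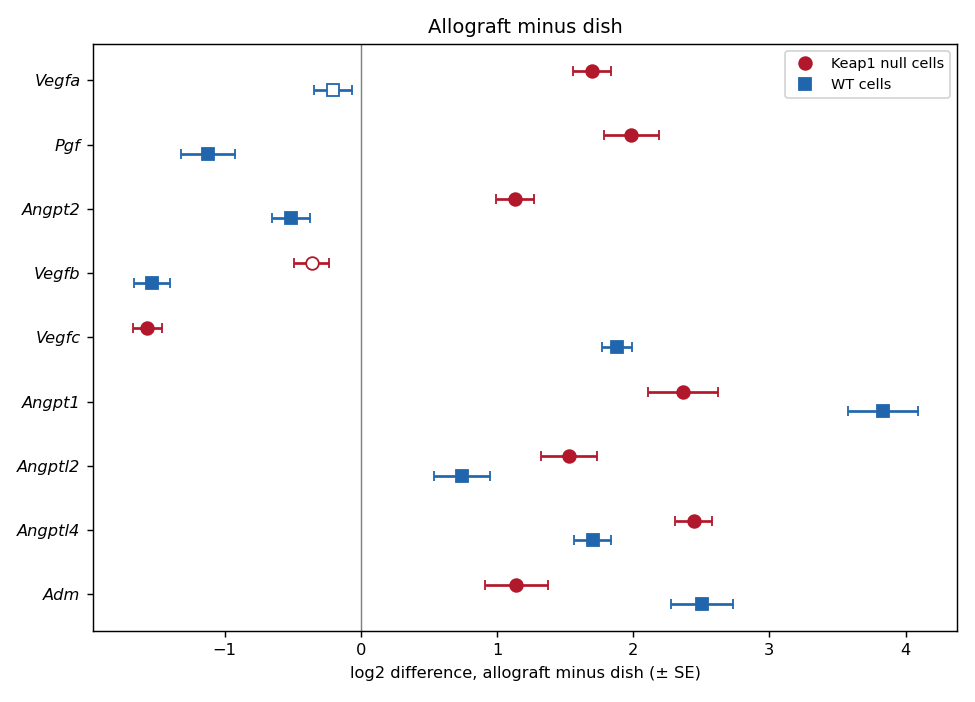
Log2 difference of each ligand, allograft minus dish, in Keap1 null cells (circles) and in WT cells (squares), with bars of ± SE; filled symbols passed limma's adjusted p under 0.05. Vegfa, Pgf and Angpt2 lie to the right in Keap1 null cells and at or to the left of 0 in WT cells, and Vegfc does the reverse. Angpt1 was not above background on any dish array, so its points and bars rest on dim dish signals.

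Counted together, 5 of the 9 ligands were called for genotype in allografts, where 41.8% of all targets were called. Of the 5, 4 were higher, against 20.5% of targets, and 1 was lower, against 21.3%. In dishes 6 were called, against 21.1% of targets, or 5 without Angpt1, whose dish signals were dim. Of the 6, 3 were higher, against 11.4% of targets, and 3 were lower, against 9.78%. The interaction was called for 8, against 32.9% of targets, with 5 positive, against 15.8%, and 3 negative, against 17%. Without Angpt1 it was called for 7, with 5 positive and 2 negative. Allograft against dish was called for 8 ligands in Keap1 null cells, where 64.9% of targets were called. Of these, 7 were higher, against 35.8% of targets, and 1 was lower, against 29.1%. In WT cells it was called for 8, where 68.1% of targets were called, with 5 higher, against 35.9%, and 3 lower, against 32.2%. Without Angpt1, which passed the filter only through its allograft signals, 7 were called in each line. With 9 genes these counts are small, and nothing is read from how far they lie from the shares. The median log2 difference of the 9 was 0.42 in allografts, -0.34 in dishes, 1.53 for growth in Keap1 null cells and 0.74 for growth in WT cells, against 0.00, -0.05, 0.03 and -0.02 over all targets. With the replicate number as a block, 6 ligands were called in allografts, against 49.8% of all targets in that fit, and 8 in dishes, against 28.4%. The block called 9 for the interaction, against 40.9%, 9 for Keap1 null growth, against 71.9%, and 8 for WT growth, against 74.5%.

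Of 18 genes for receptors and partners of these ligands, 5 were higher and 7 lower in tumours of the null line (median 0.13). In dishes 3 were higher and 2 lower. Over all targets 41.8% were called in allografts and 21.1% in dishes. Ramp3, a CALCRL partner that makes it an adrenomedullin receptor, lay at 4.28 and 3.90 in Keap1 null allografts, against -1.32 and -1.45 in WT allografts, and at 1.82 and 1.65 in Keap1 null dishes, against 0.29 and 0.00 in WT dishes. It was higher in the null line by 5.47 ± 0.17 in allografts and 1.59 ± 0.17 in dishes (limma adjusted p = 1.4e-05 and 0.00198). Ackr3, a scavenger receptor for CXCL12 and adrenomedullin, was higher by 2.85, and Lpl, the target of ANGPTL4, by 1.70, in Keap1 null allografts, and the difference of Ramp1 was -1.39. From dish to allograft 17 of 18 receptor genes rose in Keap1 null cells, against 35.8% of all targets. In WT cells 12 rose and 1 fell, against 35.9% and 32.2%. With the array median as the scale, 14 rose and 3 fell in Keap1 null cells and 11 rose and 6 fell in WT cells. On that scale 80.9% and 84.2% of all targets were called. Tek, Tie1, Ramp1 and Pirb, counted among the rises in both lines, were not above background on any dish array. They passed the filter only through their allograft signals, so the filter favoured their rise and their part in the counts is not set against the shares. Tie1, an orphan receptor that pairs with TEK, was at least 40.1-fold higher in Keap1 null allografts and at least 51.8-fold higher in WT allografts than in dishes of the same line. Kdr and Flt1, named after their values were seen, rose by 2.74 and 1.37 in Keap1 null growth and by 3.49 and 1.07 in WT growth.

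Endothelial markers came up with the tumours. Of 23 endothelial markers, 23 rose in each line from dish to allograft (21 in WT cells with the array median as the scale). Over all targets 35.8% rose in Keap1 null cells and 35.9% in WT cells. The markers summed to 59.3 to 64.2 in Keap1 null allografts and 47.3 to 51.5 in WT allografts. In dishes the sums were 7.65 to 7.81 in Keap1 null cells and 6.29 to 6.79 in WT cells. The higher sum in Keap1 null tumours rested on Esm1, at 4.36 and 4.42 in Keap1 null allografts, against 1.44 and 1.09 in WT allografts. Esm1 was also higher in cultured Keap1 null cells, at 1.59 and 1.54 in Keap1 null dishes, against -0.89 and -1.08 in WT dishes. Without Esm1 the other 22 summed to 38.7 to 42.9 in Keap1 null allografts and 45.2 to 48.8 in WT allografts. Of the 23 markers, 13 were well above background on both arrays in Keap1 null dishes and 13 in WT dishes, so most of the list was also detected in cultured cells. Pecam1, Tie1, Tek, Emcn, Erg, Sox18, Clec14a and Icam2 were not above background on any dish array. Robo4 and Myct1 were above it on 1 Keap1 null dish array each. All of these passed the filter only through their allograft signals, so the filter favoured their rise. The 13 markers detected in dishes were among those that rose. Between tumours, 1 endothelial marker was higher and 8 were lower in Keap1 null, against 20.5% and 21.3% of all targets. Of 14 macrophage markers, 13 were lower in tumours of the null line, against the same 21.3%. Their summed levels were 19.2 to 19.9 in Keap1 null allografts and 99.7 to 114 in WT allografts. Tumour RNA includes host cells, and in these bulk samples fewer cells of a type and less RNA per cell cannot be told apart; the part of host cells in the allograft differences of the ligands was not tested.

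**Figure D5:**
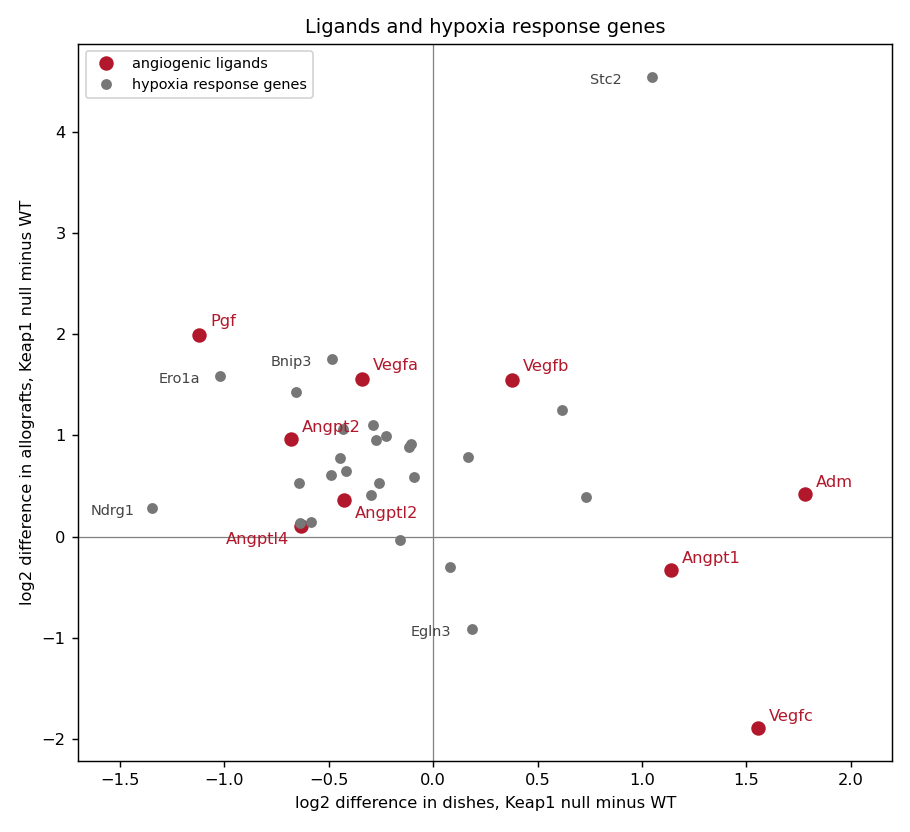
Genotype difference in dishes (horizontal) against the genotype difference in allografts (vertical), both log2 Keap1 null minus WT, for the 9 ligands (red) and 26 hypoxia response genes (grey); the 2 comparisons share no arrays. Most grey points lie above 0 on the vertical axis, as do Vegfa, Pgf, Vegfb and Angpt2, while Vegfc lies below it.

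Of 26 hypoxia response genes, 19 were higher and 1 was lower in Keap1 null allografts than in WT allografts (median 0.71). Over all targets 20.5% were higher there and 21.3% lower. In dishes 3 of the 26 were higher and 5 lower, where 21.1% of all targets were called. Stc2 lay at 0.89 and 0.88 in Keap1 null allografts, against -3.53 and -3.79 in WT allografts. It was higher in the null line by 4.54 in allografts (limma adjusted p = 9.38e-06) and by 1.05 in dishes (limma adjusted p = 0.00229). Bnip3 was higher by 1.75 and Ero1a by 1.59 in allografts, and Ndrg1 was lower in dishes, by -1.35. The gene called lower in allografts was Egln3, at -0.91 (limma adjusted p = 0.00242). The interaction was called for 18 of the 26, 17 positive and 1 negative, against 15.8% and 17% of all targets. The counts of this list changed with scaling. Without scaling, 12 were higher in Keap1 null allografts (32.3% of all targets called) and 8 were positive in the interaction (24.2% called). In WT growth 4 rose and 13 fell with the 75th percentile, where 68.1% of all targets were called. With the array median 0 rose and 23 fell, where 84.2% were called. In Keap1 null growth 14 rose and 2 fell with the 75th percentile, where 64.9% of all targets were called. With the array median 5 rose and 11 fell there, where 80.9% were called.

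Of 10 other genes of the VEGF, angiopoietin and calcitonin families, 5 were higher and 2 lower in tumours of the null line (median 0.78). In dishes 3 were higher and 1 lower (median 0.39). The shares of all targets called were 41.8% in allografts and 21.1% in dishes. Adm2 encodes a peptide that shares the adrenomedullin receptors. It lay at -6.51 and -6.64 in Keap1 null allografts and was not above background in WT allografts, so it was at least 1.44-fold higher in the null line. In dishes the order was turned. Adm2 was not above background in Keap1 null dishes and lay at -4.86 and -5.37 in WT dishes, at least 3.02-fold lower in the null line. The limma tests (adjusted p = 0.008 in allografts and 0.0026 in dishes) used the dim signals and do not test these bounds. Angpt4, a TEK ligand, was above background in WT allografts alone of the 4 groups and was at least 9.72-fold lower in Keap1 null allografts. Calcb, a calcitonin gene-related peptide that also acts through CALCRL, was at least 3.72-fold higher in Keap1 null allografts, and its dish level was at least 8.01-fold that of WT cells.

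Of 7 HIF regulators, Epas1, which encodes a HIF alpha subunit, was the only one called between the tumours, where 41.8% of all targets were called. It was 0.63 higher in Keap1 null allografts. In dishes Epas1 was 0.49 higher in Keap1 null cells, and the difference of Egln1, an oxygen-sensing hydroxylase that marks HIF for degradation, was -0.62. From dish to allograft Epas1 rose by 4.80 in Keap1 null cells and 4.66 in WT cells, and the part of host cells in this rise was not tested. Of 11 PPAR genes and targets, 5 were higher and 1 lower in Keap1 null allografts, led by Ppara, which was at least 4.23-fold higher. In dishes 2 were higher and 2 lower, where 21.1% of all targets were called.

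The genes whose level followed each ligand most closely over the 8 arrays are given by Pearson's r as a description of 12523 targets well above background on all arrays. Rbms1 (r = 0.996), Bnip3 (r = 0.993) and Dcun1d3 (r = 0.990) were closest to Vegfa, and Nr1d1 (r = 0.993), Gstp1 (r = 0.992) and Klf4 (r = 0.986) were closest to Pgf. Unc5a, Lrrn3 and Plxna3 were closest to Vegfc, and Qdpr, Myof and Cnih4 to Vegfb. Maz, Flrt2 and Btbd11 were closest to Angpt2, and Ndor1, Ash1l and Klf7 to Angptl2. Mmp2, Glipr1 and Per1 were closest to Angptl4, and Olfml2b, Itgb3 and Pcsk6 to Adm. The 8 arrays fall into 4 groups of 2, so each r is also a likeness of 4 group means. Angpt1 was left out because it was not above background on all 8 arrays.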

How the data were processed

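RNA of 8 samples, 2 per group, was hybridised to mouse arrays of 1 colour (Cy3), starting from 500 ng of RNA per the labels' protocols. The deposited intensities come, per the file headers, from Agilent Feature Extraction 10.7.3.1, with background subtracted and no scaling between arrays. The deposited value table holds the same intensities within 0.496%, so its scale is linear and uncentred. Log2 values, minus each array's 75th percentile, were computed here from the deposited intensities with R 4.3.3, without control spots or outlier spots, and repeated spots were averaged. A probe was tested when some group had it well above background on both its arrays (30355 of 41174), and a gene was represented by its brightest tested probe (22919 targets). Symbols came from RefSeq through accessions without versions on assembly GRCm38.p6, used for names and promoter windows only because the headers name mm9; 26690 probes had a symbol and 14484 had none. Columns of samples outside the series numbered 0.

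The fit by limma 3.58.1 used 4 group means over 8 arrays (4 residual and 1.83 prior degrees of freedom), with Benjamini-Hochberg adjustment over all targets. With 2 arrays a group, 0.33 is the smallest p that exact permutation allows, and it was not used. A bound ("at least") divides the bright group by the dim probe's signal or, where larger, by the lowest signal on that array well above background. On simulated data for the dish comparison over 22919 targets, 55% of genes changed by 1 and 83% of genes changed by 2 on the log2 scale were recovered, with 8 false calls. Same-numbered arrays shared a slide and deviated together (correlations 0.247 to 0.429 over 6 pairs), so the replicate number was also fitted as a block. The genes named are the 9 ligands, Keap1, up to 4 called genes with the largest change in each list and comparison, and the 3 closest symbols per ligand. Kdr, Flt1, Esm1, Egln3 and the markers listed as dim in dishes were named after their values were seen. The ligands, lists and tests were chosen with earlier results of these data known. The number of arrays limits the precision. Other background corrections, scalings, filters, probe rules and left-out arrays were tried. Normexp used median spot intensities because the files hold no mean signal, a choice made after seeing the files.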

Additional observations from a re-analysis of the deposited data

Results flagged for a closer look

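The genotype difference, Keap1 null minus WT, differed between allografts and dishes by limma's test of the interaction for 8 of the 9 ligands, or 7 without Angpt1, where 32.9% of all targets were called. The log2 interaction was 1.90 for Vegfa, 1.17 for Vegfb, 3.11 for Pgf, 1.64 for Angpt2 and 0.74 for Angptl4, each a larger value in allografts. It was -3.45 for Vegfc, -1.36 for Adm and -1.47 for Angpt1, each a larger value in dishes. The Angpt1 value rests on dish signals that were not above background.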

How the results depend on the processing

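The 5 genotype calls in allografts (Vegfa, Vegfb, Vegfc, Pgf, Angpt2) and the interactions of Vegfa, Vegfc, Pgf and Angpt2 kept their direction and their call under every alternative run. Leaving out an array in turn gave 5 called ligands in allografts (31% to 36.1% of all targets), 2 to 4 in dishes (10.4% to 14%), 6 to 7 for WT growth (60.9% to 61.5%), 8 to 9 for Keap1 null growth (53.9% to 59.9%) and 5 to 8 for the interaction (22.9% to 29.2%), so fewer targets were called across the array as well. With normexp the interaction was called for 5 ligands and 26.6% of all targets, so the calls of Vegfb, Angptl4 and Adm were not all kept. With quantile normalization 4 interactions were positive and 2 negative (32.4% of all targets called), so the negative calls of Adm and Angpt1 were not both kept. Angpt1 turned to -0.019 in dishes (adjusted p = 0.962) and 0.0195 in the interaction (adjusted p = 0.958) with normexp, where its dish signals are dim, and Angptl2 in WT growth turned to -0.28 with the array median (adjusted p = 0.331); the causes were not tested. The array median moved the median of all targets to -1.04 in WT growth and -0.84 in Keap1 null growth; Vegfa in WT growth was then called at -1.22, and Angpt2 (0.26) and Adm (0.28) in Keap1 null growth were lost. The replicate block, which divides the arrays as the slides do, called 8 ligands in dishes (28.4% of all targets) and 6 in allografts (49.8%). In dishes 3 ligands were called higher and 1 lower without scaling (11.4% of all targets called), and 4 higher and 2 lower with quantile normalization (18% called). The lower calls of Pgf, Angpt2 and Angptl4 in dishes were thus not all kept under either scaling. Over all targets, 4843 were called in dishes, against 2830 with normexp, 2620 without scaling and 2372 to 3206 with an array left out. The share of calls that were higher was 53.7% in dishes (37.3% with the array median, 76.4% without scaling), 49% in allografts (30.5% without scaling), 48.2% for the interaction (23.3% without scaling), 52.7% for WT growth (25.9% with the array median, 78.5% without scaling, 39.4% for probes above background on all arrays) and 55.2% for Keap1 null growth (27.3% with the array median, 43.1% for probes above background on all arrays).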

Other observations

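Of 14 other growth factors, 3 were higher and 3 lower in tumours of the null line (median 0.02), where 41.8% of all targets were called. In dishes 3 were higher and 2 lower, where 21.1% of all targets were called. Hgf, which encodes hepatocyte growth factor, was 4.45 higher in Keap1 null allografts on the log2 scale, and Cxcl12, a chemokine for vascular progenitors, had a difference of -3.74. Of 12 angiogenesis inhibitors, 5 were higher and 3 lower in Keap1 null allografts (median -0.32), and 3 were higher and 4 lower in dishes, against the same shares. Adamts1, a protease that binds VEGFA, was 3.05 higher in Keap1 null allografts, against a difference of -2.33 in dishes. Sema3a, a neuropilin ligand, was 4.05 higher in Keap1 null allografts, and Serpinf1, which encodes the inhibitor PEDF, was 3.84 higher in Keap1 null dishes.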
